A study of Mus musculus with 2 samples.

Results

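The miR-181 family of the mouse comprises 6 hairpin genes arranged as 3 clusters of 2 genes: Mir181a-1 with Mir181b-1, Mir181a-2 with Mir181b-2, and Mir181c with Mir181d. All 6 were taken by name from the 1973 miRNA genes counted in the series. The rule uses no measured value, though the members were chosen with earlier results of these data known. Their counts come from small RNA libraries of the forebrain of B6NCrl mouse embryos at 14.5 days, made from inserts under 30 nt. The 2 libraries are biological replicates 1 and 2 of a single group, so there was no second age, tissue or treatment to compare. Each library is described as 1 forebrain taken from a pup, on a different collection day for each, while the sex is given as pooled male and female and the donor identifier is the same for both. Any difference between the libraries can therefore not be told apart from the collection day, and part of the spread may be technical.

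A miRNA hairpin is cut into a duplex of 2 arms, named 5p and 3p, and the arm loaded into Argonaute represses mRNAs that pair with its seed, bases 2 to 8 from the 5′ end. In the miR-181 family the 5p arm is the usual guide. The family is best known in developing T cells, where miR-181a tunes the response of the T-cell receptor, and in the brain, where miR-181a has been linked to the glutamate receptor subunit GluA2.

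The 4 mature 5p miRNAs are shown first because they define the family. The RefSeq table used here (GRCm38.p6) lists them as follows, with the seed in capitals:
mmu-miR-181a-5p: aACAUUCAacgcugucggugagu
mmu-miR-181b-5p: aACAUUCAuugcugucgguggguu
mmu-miR-181c-5p: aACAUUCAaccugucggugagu
mmu-miR-181d-5p: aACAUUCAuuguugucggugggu

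All 4 carry the seed ACAUUCA, and of the 1679 distinct mature miRNA names in the table no other carried it. With positions counted from 1 at the 5′ end, mmu-miR-181a-5p and mmu-miR-181b-5p differ by A9U, C10U and A21G over the 23 bases they can be compared on. Over 23 bases, mmu-miR-181b-5p and mmu-miR-181d-5p differ by C12U alone. At its 3′ end mmu-miR-181b-5p is 1 base longer than mmu-miR-181a-5p and mmu-miR-181d-5p. Removing the base at position 11 of mmu-miR-181a-5p gives mmu-miR-181c-5p. The family thus falls into a miR-181a and miR-181c type and a miR-181b and miR-181d type, and each cluster holds 1 gene of either type.

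The 3p arms of the miR-181a and miR-181b genes are shown because they tell the gene copies apart. The bases that differ between the copies are in capitals:
mmu-miR-181a-1-3p: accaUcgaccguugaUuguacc
mmu-miR-181a-2-3p: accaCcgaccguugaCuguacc
mmu-miR-181b-1-3p: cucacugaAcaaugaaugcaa
mmu-miR-181b-2-3p: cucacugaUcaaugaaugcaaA

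The 3p arms of Mir181a-1 and Mir181a-2 differ by U5C and U16C. Those of Mir181b-1 and Mir181b-2 differ by A9U and by 1 further base at the end of the second.

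Which reads a gene count can hold depends on this sequence overlap, since the deposited tables keep a multi-mapping total for reads with several places, apart from the genes. That total held 43.3% of the reads in replicate 1 and 42.2% in replicate 2. Among the 10 distinct mature arms of the family, 2 occur in 2 hairpins each: mmu-miR-181a-5p in Mir181a-1 and Mir181a-2, and mmu-miR-181b-5p in Mir181b-1 and Mir181b-2. The other 8 occur in 1 hairpin each among the 2202 annotated miRNA hairpins. Both arms of Mir181c and Mir181d are among these 8. For the miR-181a and miR-181b genes, only the 3p arm, the loop or a 5p read that reaches past the shared stretch can be placed.

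The shared stretch, with the first base on either side that differs between the copies in capitals, is printed to show how far such a read has to reach:
Mir181a-1: UgaacauucaacgcugucggugaguuuggA
Mir181a-2: GgaacauucaacgcugucggugaguuuggG
Mir181b-1: AucaacauucauugcugucgguggguuG
Mir181b-2: CucaacauucauugcugucgguggguuU

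The miR-181a copies are identical over 28 nt, which include 1 base before and 4 bases after the mature 5p arm. The miR-181b copies are identical over 26 nt, with 2 bases before the arm and 0 bases after it. A miR-181b 5p read that runs on for 1 hairpin base at its 3′ end therefore already differs between these copies, by G for Mir181b-1 and U for Mir181b-2. Whether the last base of such reads came from the hairpin was not tested. Of the 20-nt windows of the hairpin, 59 of 68 occurred at no other annotated miRNA hairpin for Mir181a-1, 48 of 57 for Mir181a-2, 54 of 61 for Mir181b-1 and 63 of 70 for Mir181b-2. All 70 windows of Mir181c and all 53 of Mir181d did so. The tables give 1 count per hairpin and do not separate the arms, so which arm gave the counts was not tested.

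**Figure D1:**
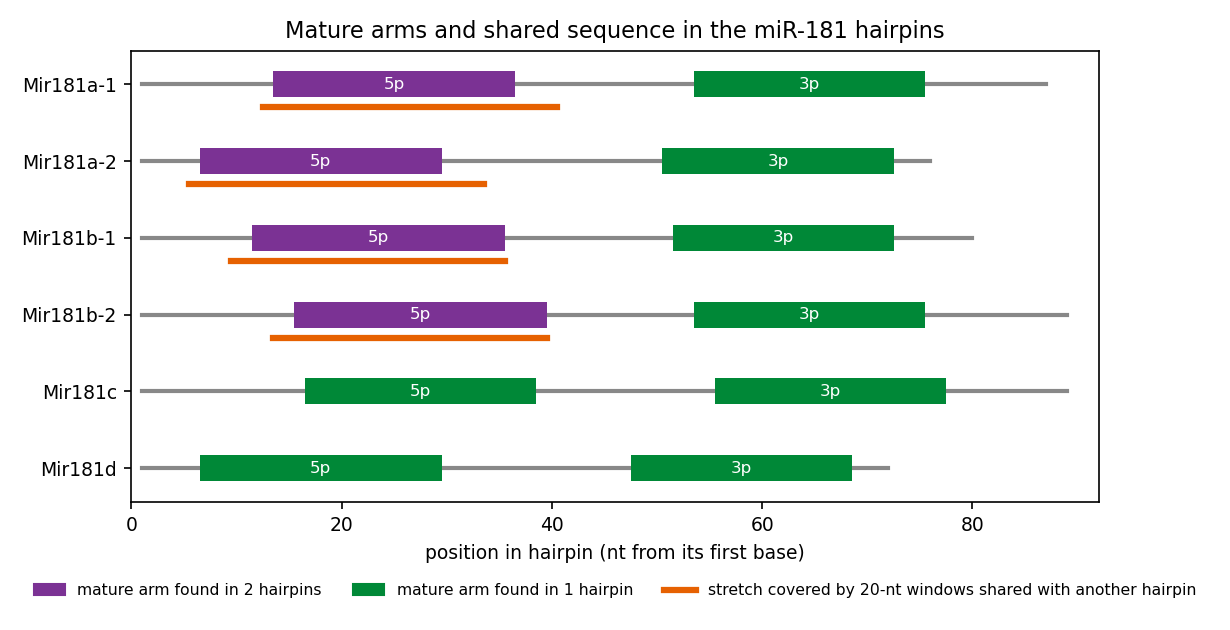
Position of the mature arms in the 6 miR-181 hairpins (x axis, nt from the first base of the hairpin). Purple arms occur in 2 hairpins and green arms in 1, and orange lines mark the stretch covered by 20-nt windows that also occur in another hairpin. The orange stretch covers the 5p arm of the 4 miR-181a and miR-181b genes, and Mir181c and Mir181d have none.

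The hairpin of Mir181c, the member with the most placed counts, shows the layout of the arms, which are in capitals:
Mir181c: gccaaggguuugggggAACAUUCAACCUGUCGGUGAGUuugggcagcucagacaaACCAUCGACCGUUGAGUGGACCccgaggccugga

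On mm10 and in the GENCODE M21 annotation, Mir181c (ENSMUSG00000065483.1) lies at chr8:84178873-84178961 on the minus strand, 85 nt from Mir181d (ENSMUSG00000076338.1) at chr8:84178716-84178787. Both lie in an intron of Nanos3, a gene for an RNA-binding protein of germ cells, on its strand. Mir181a-1 (ENSMUSG00000065565.1) lies at chr1:137966455-137966541 on the plus strand and Mir181b-1 (ENSMUSG00000065458.1) 97 nt downstream at chr1:137966639-137966718. Both are intronic to the non-coding Gm4258, and the non-coding A430106G13Rik covers Mir181b-1 and the last 11 nt of Mir181a-1 with an exon. Mir181a-2 (ENSMUSG00000065423.1), at chr2:38852735-38852810 on the plus strand, and Mir181b-2 (ENSMUSG00000065578.1), at chr2:38853830-38853918, are 1019 nt apart. They lie antisense to an intron of Nr6a1, the gene of an orphan nuclear receptor, and the annotated non-coding gene Nr6a1os ends 364 nt before Mir181a-2. Opposite-strand counts at all 6 genes were 0 in both libraries, a count that allows a level of 0.424 and 0.378 CPM at most in replicates 1 and 2 (3 counts, counting error only).

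The libraries held 7080317 and 7946585 counts on the strand of a miRNA gene in replicates 1 and 2, out of 18598385 and 20638071 reads. CPM is the count per 1000000 of these gene counts. All 6 members had 10 or more counts in both libraries, which 20.2% of all 1973 genes reached. The family held 237520 counts in replicate 1 and 271390 in replicate 2, or 3.36% (exact 95% binomial interval 3.34 to 3.37, counting error only) and 3.42% (3.40 to 3.43) of the gene counts. The mean was 3.38% ± 0.0428 (SD, n = 2).

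Of the tissue markers, neuronal miRNAs were present (10 of 11 detected, summed level 14282 and 13752 CPM in replicates 1 and 2, led by Mir137). The Mir124a genes of this list were low, with mean levels of 2.2 CPM for Mir124a-1, 1.8 for Mir124a-2 and 0.46 for Mir124a-3, the gene not detected. They are named as copies of 1 miRNA, so their levels hold for placed reads only. The same limit holds for Mir128-1 with Mir128-2 and Mir138-1 with Mir138-2 of this list, which share a mature arm. Of the 4 neural progenitor genes listed, Mir9-1 was not analysed, and the other 3 were detected as well (4045 and 3348 CPM, led by Mir92b). Among them the copies Mir9-3 and Mir9-2 had mean levels of 595 and 5.0 CPM, again in placed reads. The endothelial Mir126a stood at 22103 and 22365 CPM. Of the lymphoid and myeloid markers, cell types known for miR-181, 3 of 5 were analysed, and Mir142 and Mir146a were not. The 3 analysed summed to 186 and 191 CPM, led by Mir223, and none was at 0. A gene named Mir146 had 22.17 and 26.05 CPM and is not in this sum. The erythroid list had 406 and 543 CPM (led by Mir451a), the smooth muscle or stromal list 3621 and 4042 CPM (led by Mir143), the hepatocyte Mir122 10.3 and 10.2 CPM and the striated muscle list 19.2 and 13.6 CPM (led by Mir206), with 3 of 4 muscle genes at 0. Those 3 are Mir1a and Mir133a genes, whose mature miRNA comes from more than 1 gene copy, so their zeros hold for placed reads and are not read as absence. Which cells of the forebrain gave the miR-181 counts was not tested, and in bulk tissue fewer cells of a type and less RNA per cell cannot be told apart.

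Levels within the family, in counts that could be placed, spanned 477-fold from Mir181c to Mir181b-1 in CPM, and 429-fold per 100 nt of hairpin. Mir181c, the source of mature miR-181c, had 14627 and 15781 CPM in replicates 1 and 2, a mean of 15204 ± 816 (SD, n = 2). It ranked 12th and 13th among all genes in the respective libraries and gave 44.9% ± 1.84 of the family's counts. Mir181d, its neighbour, had 7145 and 5931 CPM (6538 ± 858), with ranks of 26 and 29. The Mir181c level lay above the Mir181d level in both libraries with no overlap of their ranges.

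Mir181a-1, the chromosome 1 copy for miR-181a, had 8326 and 9392 CPM (8859 ± 754), with ranks of 21 and 19. Its cluster partner Mir181b-1 had 33.6 and 30.1 CPM (31.8 ± 2.50), from 238 and 239 counts, and was the lowest of the family. On chromosome 2 the order of the types was the opposite. Mir181b-2 had 3243 and 2856 CPM (3050 ± 274) and Mir181a-2, the second copy for miR-181a, 172 and 162 CPM (167 ± 7.32), from 1220 and 1287 counts.

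Per 100 nt of hairpin the level was 17083 ± 917 CPM for Mir181c (SD, n = 2), 10183 ± 867 for Mir181a-1, 9080 ± 1192 for Mir181d, 3427 ± 308 for Mir181b-2, 220 ± 9.63 for Mir181a-2 and 39.8 ± 3.13 for Mir181b-1. In this order Mir181a-1 and Mir181d were the only neighbours that did not differ beyond their spread. Mir181a-1 had 9570 and 10796 CPM per 100 nt in replicates 1 and 2 and Mir181d 9923 and 8237, so Mir181d was higher in replicate 1 and Mir181a-1 in replicate 2. In CPM per gene the ranges of all neighbours in the order were apart. The inserts were under 30 nt, and whether counts rise with the length of the hairpin was not tested.

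**Figure D2:**
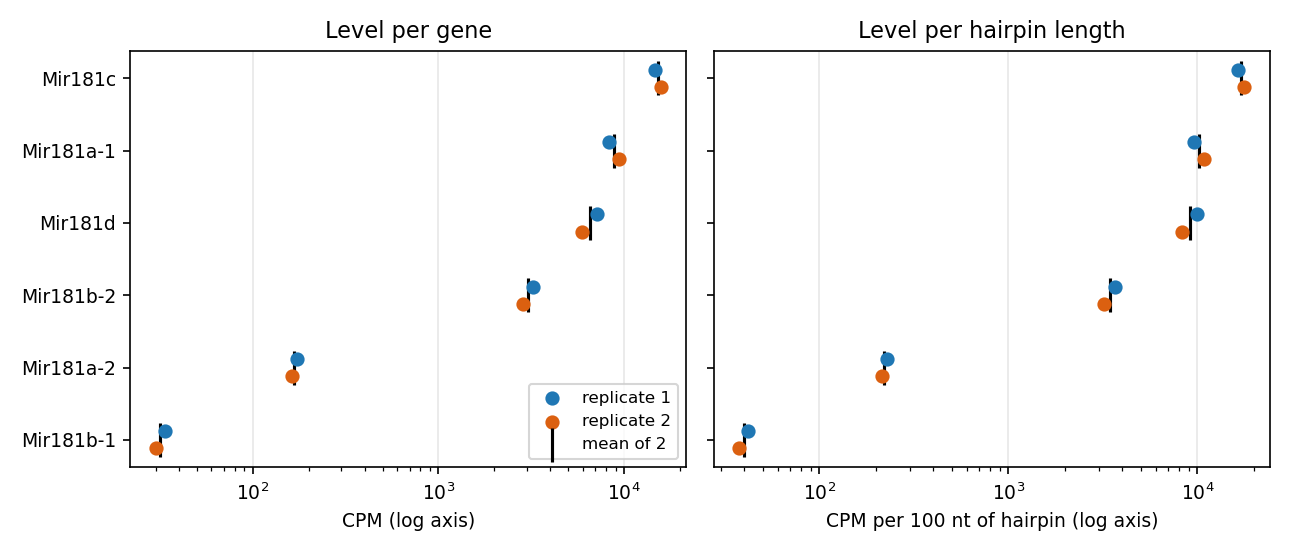
Level of the 6 miR-181 genes in each library, in CPM (left) and in CPM per 100 nt of hairpin (right), both on log axes. Points are the 2 libraries and the black bar is their mean. Mir181c is highest, Mir181a-1 and Mir181d change places between the libraries in the right panel, and Mir181a-2 and Mir181b-1 lie well below the other 4.

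The 3 clusters contributed unequally. The Mir181c and Mir181d cluster gave 64.2% ± 0.937 of the family's counts (SD, n = 2), the Mir181a-1 and Mir181b-1 cluster 26.2% ± 1.89 and the Mir181a-2 and Mir181b-2 cluster 9.51% ± 0.951. These are shares of counts that could be placed, and only the first cluster has both its mature arms at 1 hairpin each.

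Within the clusters, the members differed least in the Mir181c and Mir181d pair. Mir181c was 2.05-fold above Mir181d in replicate 1 and 2.66-fold in replicate 2, or 1.66-fold and 2.15-fold per hairpin base, a mean log2 ratio of 1.22 ± 0.27 in CPM (SD, n = 2). Mir181b-2 was 18.8-fold and 17.6-fold above Mir181a-2 (16.1-fold and 15.1-fold per base, log2 ratio of CPM 4.19 ± 0.07). Mir181a-1 was 248-fold and 312-fold above Mir181b-1 (228-fold and 287-fold per base, log2 ratio of CPM 8.12 ± 0.24). The abundant gene was the miR-181a copy on chromosome 1 and the miR-181b copy on chromosome 2. In these 2 clusters a read that lies within the shared stretch has more than 1 place, so the ratios compare placed reads and are not ratios of the mature miRNAs.

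The copies of the same mature miRNA were far apart as well. Mir181a-1 exceeded Mir181a-2 by 48.3-fold in replicate 1 and 58.0-fold in replicate 2 in CPM (42.2-fold and 50.7-fold per hairpin base). Mir181b-2 exceeded Mir181b-1 by 96.5-fold and 95.0-fold in CPM (86.7-fold and 85.4-fold per base). Both are ratios of placed reads, and whether each read came from the copy it was placed at was not tested. Across the series there were 19 pairs of detected genes that share a mature arm present in exactly 2 hairpins. Their CPM differed by a median of 3.40-fold, and that of the 17 pairs outside the miR-181 family by a median of 2.55-fold. The miR-181b pair had the largest ratio of the 19 and the miR-181a pair the next, followed by Mir92-1 over Mir92-2 at 32.0-fold, and the other 16 were under 10-fold. Among them were Mir30c-1 over Mir30c-2 of the miR-30 family at 1.85-fold, and Mirlet7a-1 over Mirlet7a-2 and Mirlet7c-2 over Mirlet7c-1 of the let-7 family at 1.50-fold and 1.21-fold. This comparison was made after the values of the members were seen and has no test.

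**Figure D3:**
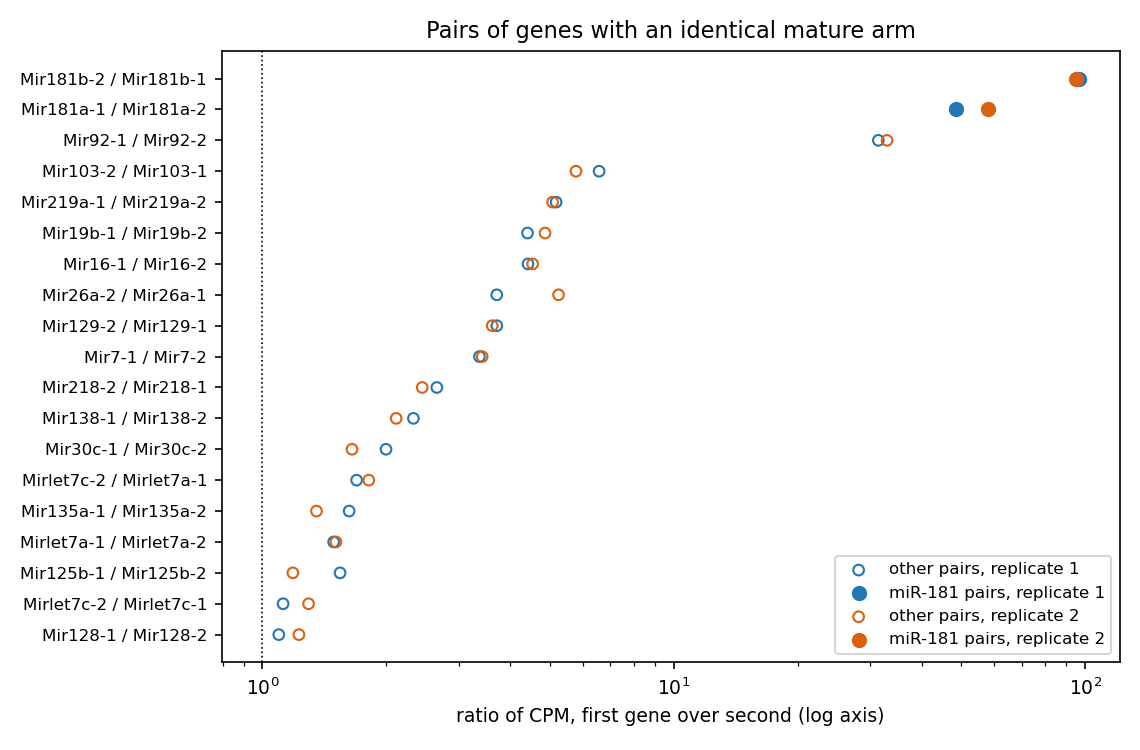
Ratio of CPM (log axis) between the genes of the 19 pairs that share an identical mature arm, both detected, for each library. Filled points are the miR-181a and miR-181b pairs and open points the other pairs, and the dotted line marks equal counts. The miR-181 pairs are at the top, at 48.3-fold or more in both libraries.

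Among 916 genes with a listed mature sequence, 814 have all listed arms at 1 hairpin, 56 have some and 46 have none. Mir181c and Mir181d belong to the first class, in which 314 genes (38.6%) were detected with a median of 97.1 CPM. The other 4 members belong to the second, with 38 genes (67.9%) detected and a median of 124 CPM. Mir181a-1 and Mir181b-2 stood above that median, at 8859 and 3050 CPM, as did Mir181a-2 at 167 CPM, and Mir181b-1 stood below it at 31.8 CPM.

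As families, miR-181 was less abundant in placed counts than the 2 families set beside it. The miR-30 family, also of 6 genes and all detected, held 4.26% of the gene counts in replicate 1 and 3.60% in replicate 2. Its top gene, Mir30e, gave 58.9% ± 0.753 of its counts (SD, n = 2). The let-7 genes together with miR-98, 10 genes and all detected, held 13.1% and 13.3%. Of these counts 44.4% ± 3.91 came from the top gene Mirlet7g, a share close to the 44.9% that Mir181c gave of the miR-181 counts.

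The family as a whole moved little between the libraries, while its members moved in both directions. The family sum was 1.02-fold higher in replicate 2. Mir181a-1 was 1.13-fold and Mir181c 1.08-fold higher in replicate 2, whereas Mir181d was 1.20-fold and Mir181b-2 1.14-fold higher in replicate 1. Each gene was set against the rest of the counts with Fisher's exact test (two-sided, Benjamini-Hochberg adjusted across the 1973 genes), and these 4 members passed. The adjusted p was 1.43e-105 for Mir181a-1, 1.04e-72 for Mir181c, 2.50e-185 for Mir181d and 1.36e-40 for Mir181b-2. The test compares 2 libraries and knows counting error only, so at these depths small ratios pass. Mir181a-2 (1220 and 1287 counts, a ratio of replicate 2 to 1 of 0.940, adjusted p = 0.882) and Mir181b-1 (238 and 239 counts, 0.895, adjusted p = 1.00) did not pass Fisher's exact test.

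Of all genes, 9.02% passed this test, 3.19% with the higher level in replicate 2 and 5.83% in replicate 1. Of the 399 detected genes, 43.9% passed, which is the nearer background for 4 of 6 members, all of which were detected. Whether a gene passes also depends on its number of counts. By mean CPM the 4 members called ranked 12, 19, 27 and 52 among all genes, and the members not called 161 and 251. A background of genes with like counts was not computed, so 4 of 6 is not read as an excess. None of the members passed with at least a 2-fold difference, as 0.355% of all genes did. The median log2 ratio of replicate 2 to 1 was -0.12 over the 6 members and -0.09 over all detected genes. Relative to the latter, Mir181a-1 was at 0.26, Mir181c at 0.20, Mir181d at -0.18, Mir181b-2 at -0.09 and Mir181b-1 at -0.07 on the log2 scale, and Mir181a-2 sat at the median itself. Median-of-ratios scaling moved all log2 ratios up by 0.11 and left the 4 calls with their directions, while Mir181a-2, not called, then stood at 0.02. Over all genes the calls split into 63 higher in replicate 2 and 115 higher in replicate 1, and into 90 and 80 with that scaling.

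Of the 4 genes called, those higher in replicate 2 were of the miR-181a and miR-181c type and those higher in replicate 1 of the miR-181b and miR-181d type. Mir181a-2, of the former type and not called, had 172 and 162 CPM, and a difference between the types was not tested. Mir181c and Mir181d, 85 nt apart in 1 intron, went in opposite directions, with log2 ratios of 0.11 and -0.27. Their sum was 21771 and 21711 CPM in replicates 1 and 2. With median-of-ratios scaling the log2 ratios were 0.22 and -0.16, so the near-equal sum holds for CPM only. For comparison, all 6 miR-30 genes passed the same test with the higher level in replicate 1. Of the 10 genes of the let-7 family with miR-98, 7 were called higher in replicate 2 and 1 higher in replicate 1. The difference between these families was not tested.

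**Figure D4:**
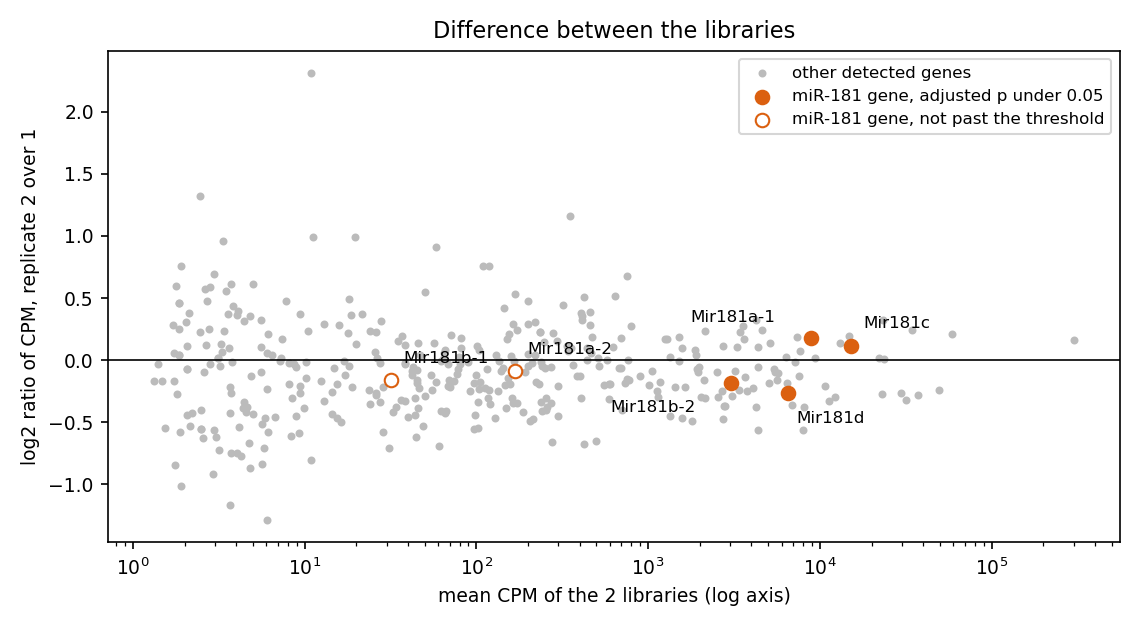
Log2 ratio of CPM between the libraries (replicate 2 over 1) against the mean CPM (log axis) for the 399 detected genes. Filled orange points are miR-181 genes past the threshold of Fisher's exact test and open orange points those not past it. Mir181a-1 and Mir181c lie above 0, Mir181d and Mir181b-2 below, and all 6 members lie within 2-fold.

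With a single group of 2 libraries, likeness of a gene to a member could only be measured as distance in level, the Euclidean distance on log2(CPM + 1) over both libraries. The nearest detected gene was Mir149 for Mir181c (distance 0.08), Mir322 for Mir181a-1 (0.16), Mir16-1 for Mir181d (0.07), Mir541 for Mir181b-2 (0.02), Mir29a for Mir181a-2 (0.06) and Mir1955 for Mir181b-1 (0.07). Mir541 had 3254 and 2824 CPM, against 3243 and 2856 CPM for Mir181b-2. Mir149 had 13878 and 15885 CPM, higher in replicate 2 as Mir181c was. The distance was taken on these same values, so a shared direction follows in part from the choice. Mir322 had 9315 and 9425 CPM, against 8326 and 9392 CPM for Mir181a-1.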

How the data were processed

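Values were whole-number read counts per miRNA gene, deposited by the authors as 1 table per library without a header. Per the README deposited with each sample, they were derived from 1 alignment file on mm10 with GENCODE M4. Which aligner and which counter made them is not given in the sources used here. Of the 3 count columns, the one for the strand of the gene was used. The totals for unmapped (16.8% of reads on average), multi-mapping (42.7%), unannotated (2.21%) and ambiguous reads (0%) name no gene and were left out of library sizes.

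Names and positions came from GENCODE M21, matched by gene ID without its version (1894 of 1973 genes matched), since Mir181c has another version there than in the tables. Mature sequences came from RefSeq (GRCm38.p6, all 6 members matched) and hairpins from GENCODE M21. Overlap was searched exactly, on both strands, in hairpins and, as an alternative added after the data were seen, in all annotated transcripts. No genome sequence was searched.

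Detected genes had at least 10 counts in each library. Fisher's exact test (scipy 1.17.1) was run for every gene, with Benjamini-Hochberg adjustment over all genes and a threshold of 0.05. It was also run on counts simulated with known 2-fold changes and counting error alone. That run holds no variation between libraries, so it does not show how the test behaves with the spread of these 2 libraries. edgeR 4.0.16 (TMM) and DESeq2 1.42.0 gave scaling factors only. One count was worth 0.141 and 0.126 CPM in replicates 1 and 2. Intervals cover the counting error of reads only. PCR copies are not independent molecules, so the intervals may be too narrow for counts of molecules.

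The named genes are the 6 members, the nearest gene to each, the top gene and identical-arm pairs of the miR-30 and let-7 families, and the top gene of each marker list. The Mir92-1 and Mir92-2 pair, Mir99a, Mir146 and the Mir1a, Mir133a, Mir124a, Mir9, Mir128 and Mir138 genes fall outside this rule. They were named after their values were seen. Mir142, Mir146a and Mir9-1 were named because they were not analysed. The members and lists were chosen with earlier results of these data known.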

Additional observations from a re-analysis of the deposited data

How the results depend on the processing

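The 4 calls between the libraries and their directions held under TMM, median-of-ratios and all-read scaling, with totals that leave out Mir99a, with counts on either strand and with only genes of 10 or more counts in the adjustment, and the count with at least a 2-fold difference was 0 in each. All 6 members were detected with a minimum of 1 or 100 counts. Over all genes, the split between higher in replicate 2 and higher in replicate 1 was 63 and 115, against 79 and 88 with TMM, 90 and 80 with median-of-ratios factors and 78 and 91 without Mir99a. The log2 ratio of the family sum (0.03) was 0.11 with TMM, 0.14 with median-of-ratios factors, 0.10 without Mir99a and 0.042 with all reads.

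Levels depend on the total they are divided by. The family share was 4.85% without Mir99a, 1.30% of all reads and 3.34% with either strand. Without Mir99a the levels were 21786 CPM for Mir181c, 12701 for Mir181a-1, 9338 for Mir181d, 4360 for Mir181b-2, 239 for Mir181a-2 and 45.5 for Mir181b-1. Per 1000000 of all reads they were 5822, 3393, 2502, 1167, 64.0 and 12.2 in the same order. The share of Mir181c in the family was 42.7% per hairpin base. With a pseudocount of 10 the log2 ratio was 7.73 for Mir181a-1 to Mir181b-1 and 4.11 for Mir181b-2 to Mir181a-2. Per hairpin base it was 3.96 for the latter and 0.92 for Mir181c to Mir181d. Leaving out either replicate gives the values of the other, as reported.

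Windows of 18 or 22 nt, or a search of all annotated transcripts, kept the number of windows found at 1 place within 1.5 times for every member. The search of the genome was not run, since no genome sequence was at hand. No paired analysis was possible because the libraries form a single group. With 2 libraries the SD is a coarse estimate of spread.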
